A study of Mus musculus with 4 samples.

Results

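The triggering receptors expressed on myeloid cells (TREM receptors), the transmembrane adaptors that carry their signal and the kinase Syk were followed in 2 cell populations sorted from mouse wound beds. The members were taken by gene symbol: the receptors Trem1, Trem2, Trem3, Treml1, Treml2 and Treml4, the adaptors Tyrobp and Hcst, and Syk. All 9 were present among the 24358 gene symbols of the deposited table, with 17 of its 34535 transcripts, and 8 of the 9 had a transcript that was tested. CD301b macrophages, which bear the C-type lectin CD301b, were set against immune cells negative for F4/80, a surface protein of mouse macrophages. Both came from the dermis of day 5 wound beds of male C57/Bl6 mice aged 7 weeks, with no transgene or treatment named in the labels, and both were isolated by fluorescence-activated cell sorting. Each population had 2 mRNA libraries. Macrophages without CD301b were not analysed here, so traits of the CD301b subset and traits of wound macrophages in general cannot be told apart.

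TREM receptors are single-pass membrane proteins with an immunoglobulin-like domain and short cytoplasmic tails. Most of them cannot signal alone and pair, through a charged residue in the membrane, with DAP12, the product of Tyrobp. DAP12 carries an immunoreceptor tyrosine-based activation motif (ITAM). Once Src family kinases have phosphorylated the ITAM, it recruits the kinase Syk. DAP10, the product of Hcst, carries a motif that recruits phosphoinositide 3-kinase instead. In macrophages the pathway is known for opposite roles of its receptors: TREM1 amplifies inflammatory responses, while TREM2 binds lipids, lipoproteins and dying cells and supports phagocytosis and survival.

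Values are FPKM, which are fragments divided by transcript length in kilobases and scaled to the number of mapped fragments, with 1 authors' value per transcript and population, summed over the transcripts of a gene. Because values per library were not used here, no standard deviation accompanies them. The depth of the libraries is unknown. Significance rests on p-values that the authors' deposited table gives from Cuffdiff, adjusted here with the Benjamini-Hochberg procedure over all 16921 tested transcripts. Adjusted p below has this meaning unless a sentence says otherwise, and all coordinates are on GRCm38. A gene is called higher or lower when a transcript has an adjusted p of at most 0.05 in that direction, none passes in the other and the summed FPKM goes the same way. No label says that the libraries of a population are from separate animals, and p-values then measure only the spread between these libraries, which may be technical. All folds and log2 folds are CD301b macrophages over F4/80-negative cells unless the sentence says otherwise, and log2 folds were taken after adding 1 FPKM to both values, so the log2(FPKM + 1) scale shrinks the folds of low genes.

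The transcripts of the sorted surface proteins did not both follow the labels. Adgre1, which encodes F4/80, was 557 FPKM in CD301b macrophages and 151 FPKM in F4/80-negative cells. Mgl2, which encodes CD301b, was 49.2 FPKM in CD301b macrophages and 103 FPKM in F4/80-negative cells, the opposite of what the label names. Adgre1 was thus higher and Mgl2 lower in CD301b macrophages (adjusted p = 0.000999 for each by Cuffdiff in the authors' deposited table). Ptprc, the pan-leukocyte protein CD45, was 116 FPKM in CD301b macrophages and 118 FPKM in F4/80-negative cells and was not past the threshold. All 9 macrophage markers were higher in CD301b macrophages, with a sum of 7893 FPKM in CD301b macrophages and 2676 FPKM in F4/80-negative cells, and none of them was at 0 in F4/80-negative cells. The complement genes C1qb (2409 FPKM in CD301b macrophages and 724 FPKM in F4/80-negative cells) and C1qa (1530 FPKM in CD301b macrophages and 425 FPKM in F4/80-negative cells) led that sum. Of 8 tested dendritic cell markers, 6 were lower, with a sum of 58.2 FPKM in CD301b macrophages and 232 FPKM in F4/80-negative cells, and Cd209a, a lectin of dendritic cells, was 18.4 FPKM in CD301b macrophages and 76.6 FPKM in F4/80-negative cells. Of 7 tested monocyte markers 1 was higher and 2 were lower, with a sum of 409 FPKM in CD301b macrophages and 457 FPKM in F4/80-negative cells. Their members differed in direction: Cx3cr1, the fractalkine receptor, was higher (26.4 FPKM in CD301b macrophages and 13.7 FPKM in F4/80-negative cells), while Ly6c2, a surface antigen of inflammatory monocytes, was lower (37.6 FPKM in CD301b macrophages and 107 FPKM in F4/80-negative cells). The most abundant monocyte markers, the nuclear receptor gene Nr4a1 (143 FPKM in CD301b macrophages and 160 FPKM in F4/80-negative cells) and the chemokine receptor gene Ccr2 (153 FPKM in CD301b macrophages and 110 FPKM in F4/80-negative cells), were not past the threshold. T and natural killer cell markers summed to 25.6 FPKM in CD301b macrophages and 12.2 FPKM in F4/80-negative cells, and Cd4, which some macrophages also express, made up most of the CD301b macrophage sum and was the only one called of 4 tested (18.6 FPKM in CD301b macrophages and 4.92 FPKM in F4/80-negative cells). Nkg7, a granule protein of cytotoxic lymphocytes, was 2.58 FPKM in CD301b macrophages and 2.34 FPKM in F4/80-negative cells and missed the threshold. Of 5 tested mast cell markers 4 were lower, with a sum of 16.8 FPKM in CD301b macrophages and 48.4 FPKM in F4/80-negative cells, led by the mast cell proteases Mcpt4 (5.93 FPKM in CD301b macrophages and 16.9 FPKM in F4/80-negative cells) and Cma1 (6.01 FPKM in CD301b macrophages and 15.5 FPKM in F4/80-negative cells). In bulk samples such as these, fewer cells of a type and less RNA per cell cannot be told apart.

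The stretch of sequence that separates the transcripts of Trem2 is shown because both transcripts carried the main difference described below. The deposited table resolved 2 Trem2 transcripts. In the GENCODE M21 models on GRCm38, transcript NM_001272078 begins its exon 4 at an earlier splice acceptor than NM_031254 and so holds 55 more bases, at chr17:48351691-48351745 on the plus strand. The extra bases are coding and are not a multiple of 3, so the reading frame after them differs between the transcripts. The coding part has 747 bases (249 codons) in NM_001272078 and 681 bases (227 codons) in NM_031254. Below, capitals mark the 55 bases, with 30 bases of exon 3 before and 30 bases of shared exon 4 after them.
Trem2 NM_001272078: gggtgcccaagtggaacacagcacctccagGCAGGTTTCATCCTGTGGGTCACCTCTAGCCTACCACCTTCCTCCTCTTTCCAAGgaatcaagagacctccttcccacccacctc
Trem2 NM_031254: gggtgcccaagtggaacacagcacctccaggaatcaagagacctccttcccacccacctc

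Among the 8 tested members there were 2 higher and 0 lower in CD301b macrophages, and the other 6 missed the threshold. Over all 13039 tested genes, 17.2% were called in either direction, so a count of 2 among 8 does not set the members as a whole apart. At an unadjusted p under 0.05 in the authors' deposited table, 3 members were higher and 0 lower. The median log2 fold of the tested members was 0.22, against 0.05 over all tested genes. The higher members were Trem2 and Treml4. Of the 13 tested transcripts of the members, 3 were higher and 0 lower, against 9.10% higher and 5.14% lower among all tested transcripts.

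**Figure D1:**
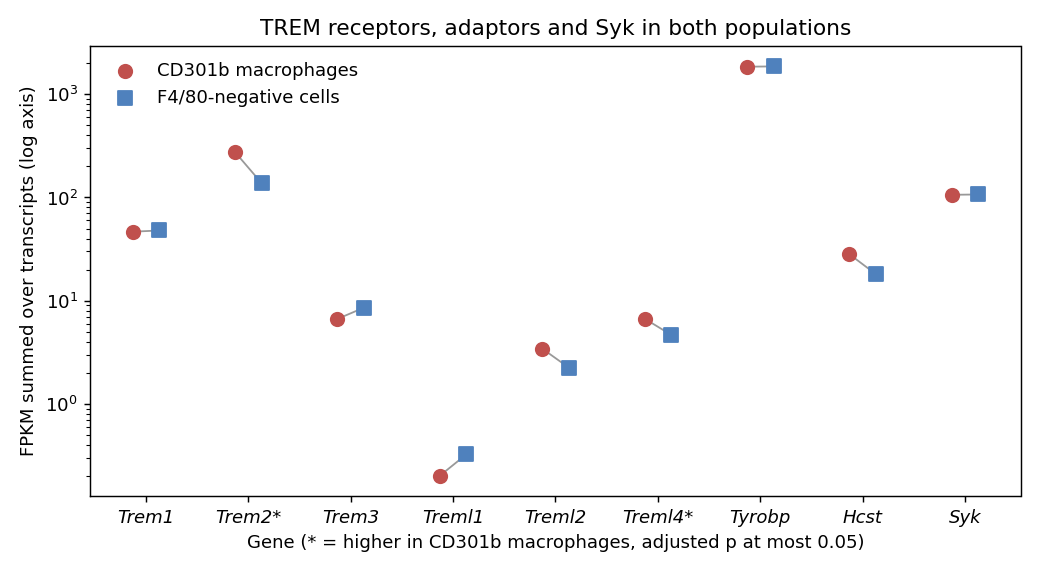
FPKM summed over transcripts (log axis) of the 6 TREM receptor genes, the adaptors Tyrobp and Hcst, and Syk, with 1 authors' value per population: circles are CD301b macrophages and squares F4/80-negative cells. Trem2 stood at 275 FPKM in CD301b macrophages and 137 FPKM in F4/80-negative cells, while the values of Tyrobp and of Syk nearly coincided, and an asterisk marks the genes called higher in CD301b macrophages.

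Trem2, the lipid-sensing receptor (NCBI gene 83433, chromosome 17, 48346401 to 48352276, GRCm38, plus strand), was 275 FPKM in CD301b macrophages and 137 FPKM in F4/80-negative cells, a 2.0-fold difference. It was the most abundant TREM receptor in both populations and ranked 310th among all genes in CD301b macrophages and 555th in F4/80-negative cells. Its log2 fold of 0.99 exceeded that of 97.4% of tested genes. Transcript NM_031254 was 238 FPKM in CD301b macrophages and 120 FPKM in F4/80-negative cells (1.99-fold, adjusted p = 0.000999 by Cuffdiff in the authors' deposited table, the smallest value its p-values allow). Transcript NM_001272078, with the 55 extra bases shown above, was 36.4 FPKM in CD301b macrophages and 17.7 FPKM in F4/80-negative cells (2.06-fold, adjusted p = 0.00182 by Cuffdiff in the authors' deposited table). Both transcripts were thus higher by nearly the same fold. NM_001272078 made up 13.3% of Trem2 FPKM in CD301b macrophages and 12.9% in F4/80-negative cells. The share of the longer reading frame could not be tested, since the table gives 1 value per population.

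The macrophage markers moved with Trem2 and mostly by more. Their ratios lay between 1.78 for Cd68, a lysosomal glycoprotein, and 3.69 for Adgre1, with a median of 3.08. Trem2, at 2.0-fold, was below every one of these ratios except that of Cd68. The part of macrophage content in the Trem2 difference was not tested.

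Treml4, a receptor of macrophages and dendritic cells that binds dying cells (NCBI gene 224840, chromosome 17, 48264200 to 48275607), was low, at 6.69 FPKM in CD301b macrophages and 4.66 FPKM in F4/80-negative cells (1.43-fold). The difference was carried by 1 of its 4 transcripts. NM_172623 was 4.17 FPKM in CD301b macrophages and 1.09 FPKM in F4/80-negative cells (3.83-fold, adjusted p = 0.0230 by Cuffdiff in the authors' deposited table). It made up 62.3% of Treml4 FPKM in CD301b macrophages and 23.4% in F4/80-negative cells. NM_001163796 was 1.91 FPKM in CD301b macrophages and 1.36 FPKM in F4/80-negative cells. NM_001033922 was 0.557 FPKM in CD301b macrophages and 1.32 FPKM in F4/80-negative cells, and NM_001163795 was 0.0509 FPKM in CD301b macrophages and 0.900 FPKM in F4/80-negative cells. These 3 were not past the threshold (adjusted p between 0.476 and 0.583 by Cuffdiff in the authors' deposited table), and NM_001033922 and NM_001163795 had the lower value in CD301b macrophages. The call of Treml4 was lost when its smallest p was corrected for the 4 transcripts tested. That corrected Cuffdiff p, adjusted here with Benjamini-Hochberg over genes rather than transcripts, was 0.0535.

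The transcripts of Treml4 are close variants of each other, apart from the long last exon of NM_172623. Exon 4 begins at 1 of 3 splice acceptors and is 85 bases long in NM_001163795, 82 bases in NM_172623 and NM_001033922, and 58 bases in NM_001163796. Each form is shown to its common end at chromosome 17 position 48269766 (GRCm38, plus strand), with capitals for the bases that the shortest form lacks.
Treml4 NM_001163795: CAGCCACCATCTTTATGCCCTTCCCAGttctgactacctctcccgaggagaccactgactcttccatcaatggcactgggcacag
Treml4 NM_172623: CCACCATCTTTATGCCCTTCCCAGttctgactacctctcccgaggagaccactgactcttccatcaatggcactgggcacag
Treml4 NM_001163796: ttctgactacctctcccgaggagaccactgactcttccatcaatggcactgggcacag
The capital stretches of 27 and 24 bases are multiples of 3, so they leave the reading frame unchanged. The last exon of NM_172623 is 981 bases long, against 287 bases in NM_001033922 and 114 bases in the others. Of the 50-base words of NM_172623, 43.4% occur in no other Treml4 transcript. For the other Treml4 transcripts that share was between 4.88% and 6.08%.

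**Figure D2:**
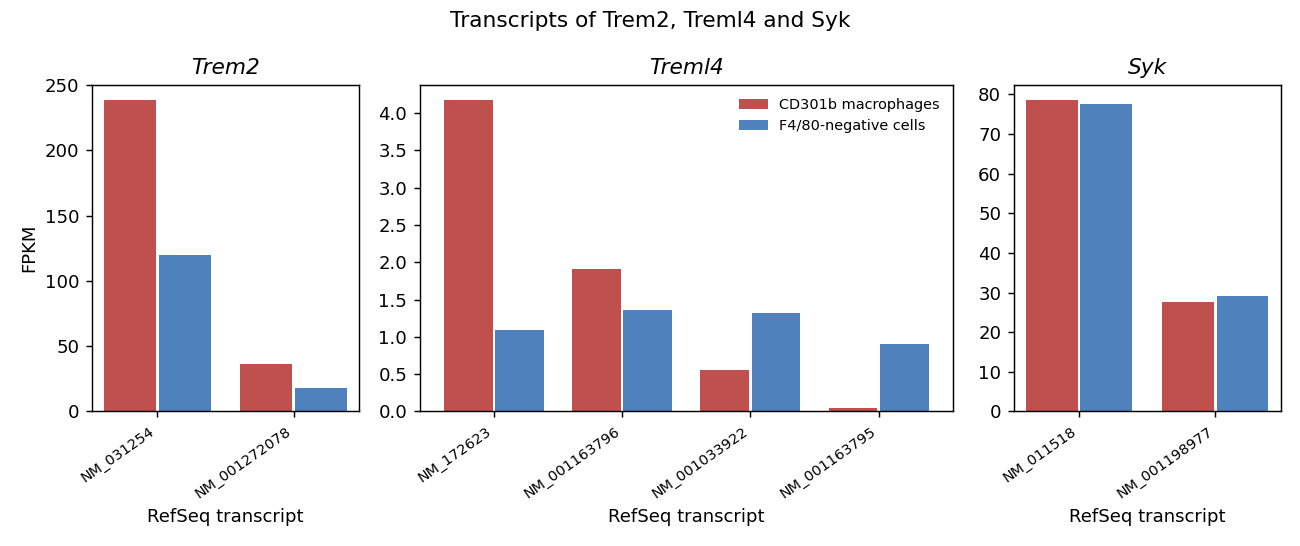
FPKM of each RefSeq transcript of Trem2, Treml4 and Syk, in bars from 0, 1 authors' value per population, with CD301b macrophages left of F4/80-negative cells. Both Trem2 transcripts were about 2.0-fold higher in CD301b macrophages, the Treml4 difference lay in NM_172623, and the Syk transcripts had nearly equal values in both populations.

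Trem1, which amplifies inflammatory responses of neutrophils and monocytes (NCBI gene 58217, chromosome 17, 48232713 to 48246927), was 46.6 FPKM in CD301b macrophages and 47.9 FPKM in F4/80-negative cells. It was not past the threshold (adjusted p = 0.913 by Cuffdiff in the authors' deposited table). Trem3, a DAP12-pairing receptor of mouse macrophages next to Trem1, was 6.65 FPKM in CD301b macrophages and 8.56 FPKM in F4/80-negative cells (adjusted p = 0.418 by Cuffdiff in the authors' deposited table). The ratio of Trem2 to Trem1 FPKM was 5.90 in CD301b macrophages and 2.87 in F4/80-negative cells. Neutrophil markers, of a cell type known for TREM1, summed to 2188 FPKM in CD301b macrophages and 3927 FPKM in F4/80-negative cells. Of 9 tested neutrophil markers 1 was higher and 3 were lower, with a median log2 fold of 0.08. The higher one was Ngp, at 2.78 FPKM in CD301b macrophages and 0.464 FPKM in F4/80-negative cells. S100a9 and S100a8, calcium-binding proteins of neutrophils and monocytes, made up most of both sums. They were 1092 and 938 FPKM in CD301b macrophages and 2025 and 1725 FPKM in F4/80-negative cells. Cxcr2 was 27.3 FPKM in CD301b macrophages and 25.7 FPKM in F4/80-negative cells and was not past the threshold, and Elane, neutrophil elastase, was listed at 0 in both populations. The part of neutrophils in the Trem1 level was not tested.

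Treml2, a receptor of B cells, neutrophils and macrophages that does not rely on DAP12 (NCBI gene 328833, chromosome 17, 48299390 to 48312534), was 3.43 FPKM in CD301b macrophages and 2.24 FPKM in F4/80-negative cells (1.53-fold). It narrowly missed the threshold (adjusted p = 0.0591 by Cuffdiff in the authors' deposited table). In both populations 4 of the 6 markers of B cells stayed under 1 FPKM. The whole B cell list summed to 27.7 FPKM in CD301b macrophages and 8.99 FPKM in F4/80-negative cells, of which Cd79b and Cd22 made up most.

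Treml1, a receptor stored in platelet granules (NCBI gene 71326, chromosome 17, 48359916 to 48367176), was 0.201 FPKM in CD301b macrophages and 0.324 FPKM in F4/80-negative cells. None of its 4 transcripts was tested by the authors. Nearly all of it was NR_110338, which carries a RefSeq accession of the non-coding kind, at 0.201 FPKM in CD301b macrophages and 0.317 FPKM in F4/80-negative cells. Platelet markers gave a divided picture. Pf4 and Ppbp, platelet chemokines, were 1048 and 90.6 FPKM in CD301b macrophages and 399 and 34.7 FPKM in F4/80-negative cells, while the other 7 of that list stayed under 1 FPKM in both. Gp6, the platelet collagen receptor, was listed at 0 in both populations.

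As a family, the 6 TREM receptors summed to 338 FPKM in CD301b macrophages and 201 FPKM in F4/80-negative cells (1.68-fold). Trem2 made up 81.2% of that sum in CD301b macrophages and 68.3% in F4/80-negative cells. Trem1 made up 13.8% of it in CD301b macrophages and 23.8% in F4/80-negative cells. Without Trem2, the other receptors summed to 63.5 FPKM in CD301b macrophages and 63.7 FPKM in F4/80-negative cells, so the difference of the family sum lay in Trem2. In CD301b macrophages the receptors ran from Trem2 through Trem1, Treml4, Trem3 and Treml2 down to Treml1, with Treml4 and Trem3 at nearly the same level. In F4/80-negative cells Trem3 stood above Treml4.

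The TREM receptor genes lie together within 134 kb of chromosome 17, from Trem1 at the lower to Treml1 at the higher coordinates. A further gene in this span, B430306N03Rik, which RefSeq also lists as Treml6, lies between Treml2 and Trem2 (48316162 to 48326511). B430306N03Rik was 19.9 FPKM in CD301b macrophages and 9.60 FPKM in F4/80-negative cells, with a log2 fold of 0.98 and an adjusted p of 0.000999 by Cuffdiff in the authors' deposited table. Its fold was thus close to that of its neighbour Trem2. The genes beyond Treml1, Nfya and Oard1, were not past the threshold. Nfya, a subunit of a CCAAT-binding factor, was 23.5 FPKM in CD301b macrophages and 20.7 FPKM in F4/80-negative cells, and Oard1 was 14.6 FPKM in CD301b macrophages and 13.7 FPKM in F4/80-negative cells. The cluster thus held 3 genes called higher, Treml4, B430306N03Rik and Trem2, where 11.0% of all tested genes were called higher. The call of Treml4 was lost at a threshold of 0.01. Trem1, Trem3 and Treml2 were not past the threshold, and Treml1 was not tested. No 50-base word of a member's transcripts occurred in a GENCODE M21 transcript of another gene on either strand.

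The Trem2 promoter is shown because Trem2 carried the family's difference. Capitals mark matches to 5 motifs searched on both strands in the 250 bases before the gene start: TGANTCA for AP-1, TTGCNNAA for C/EBP, GAGGAA for PU.1, and the E-boxes CACGTG and CATGTG. The sequence is from RefSeq (GRCm38.p6), chr17:48346151-48346400, plus strand.
Trem2 promoter: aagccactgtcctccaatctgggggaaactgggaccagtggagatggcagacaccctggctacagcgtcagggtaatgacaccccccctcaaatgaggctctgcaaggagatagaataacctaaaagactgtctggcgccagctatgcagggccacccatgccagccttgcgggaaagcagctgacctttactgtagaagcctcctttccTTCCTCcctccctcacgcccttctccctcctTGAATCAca
The window holds a PU.1 match on the minus strand starting at position -40 and an AP-1 match starting at position -9, which do not overlap. Of 32851 RefSeq promoter windows of the same length, 23.3% hold the PU.1 letters and 6.75% the AP-1 letters. A match is a description of these letters only.

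Tyrobp, which encodes DAP12 (NCBI gene 22177, chromosome 7, 30413782 to 30417582), was 1852 FPKM in CD301b macrophages and 1864 FPKM in F4/80-negative cells. It was the most abundant member and ranked 30th among all genes in CD301b macrophages and 29th in F4/80-negative cells. It was not past the threshold (adjusted p = 0.979 by Cuffdiff in the authors' deposited table). Tyrobp FPKM was 5.48 times the summed TREM receptors in CD301b macrophages and 9.28 times in F4/80-negative cells. Against Trem2 alone the ratio was 6.74 in CD301b macrophages and 13.6 in F4/80-negative cells. Per transcript length, adaptor RNA thus exceeded receptor RNA in both populations.

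Hcst, which encodes DAP10 (NCBI gene 23900, chromosome 7, 30417712 to 30419854), was 28.2 FPKM in CD301b macrophages and 18.0 FPKM in F4/80-negative cells (1.57-fold). It was not past the threshold (adjusted p = 0.191 by Cuffdiff in the authors' deposited table). Hcst lies on the minus strand and Tyrobp on the plus strand, with 129 bases between their ends, so both are read toward each other. Tyrobp FPKM was 65.6 times that of Hcst in CD301b macrophages and 103 times in F4/80-negative cells. Whether reads past the end of Tyrobp reached Hcst was not tested. The next gene on that side, Nfkbid, an inhibitor of NF-kB in the nucleus, was 31.2 FPKM in CD301b macrophages and 42.7 FPKM in F4/80-negative cells and was not past the threshold. Aplp1, beyond it, was 1.06 FPKM in CD301b macrophages and 1.36 FPKM in F4/80-negative cells and was not past the threshold either, and Kirrel2, Nphs1 and Nphs1os were not tested.

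Syk, the kinase that docks on phosphorylated ITAMs (NCBI gene 20963, chromosome 13, 52582610 to 52648792), was 106 FPKM in CD301b macrophages and 107 FPKM in F4/80-negative cells. Neither of its transcripts was past the threshold. NM_011518 was 78.4 FPKM in CD301b macrophages and 77.7 FPKM in F4/80-negative cells (adjusted p = 0.976 by Cuffdiff in the authors' deposited table). NM_001198977 was 27.7 FPKM in CD301b macrophages and 29.2 FPKM in F4/80-negative cells (adjusted p = 0.924 by Cuffdiff in the authors' deposited table). The transcripts share a coding part of 1887 bases and differ in their first exons, which start 13680 bases apart in GENCODE M21. NM_011518, from the inner start, made up 73.9% of Syk FPKM in CD301b macrophages and 72.7% in F4/80-negative cells. The ratio of Tyrobp to Syk FPKM was 17.4 in both populations. The neighbouring gene Gm2848 was 1.22 FPKM in CD301b macrophages and 1.92 FPKM in F4/80-negative cells and was not past the threshold.

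**Figure D3:**
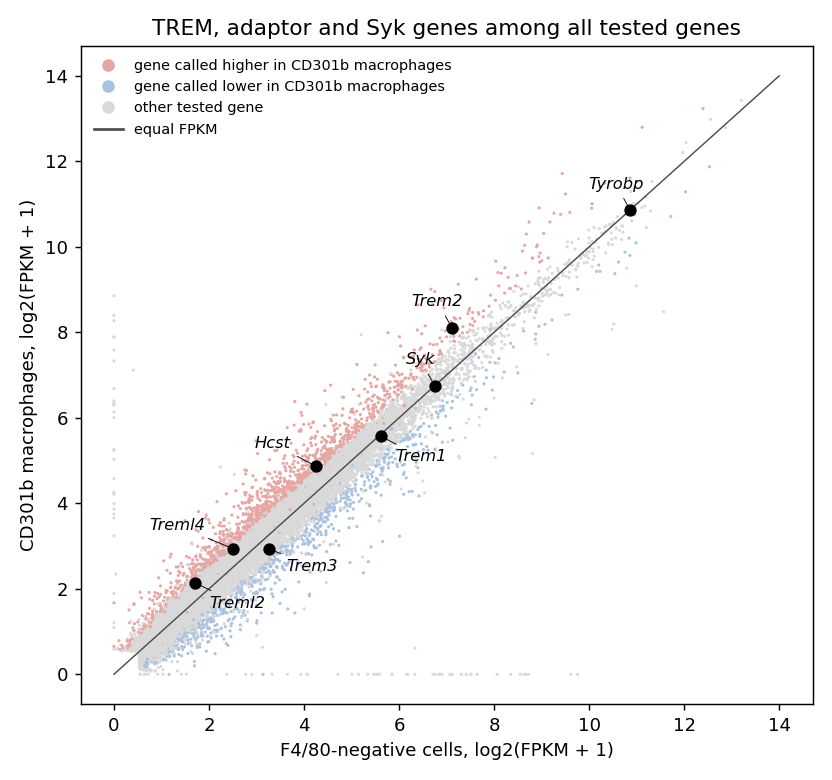
Each of the 13039 tested genes by its log2(FPKM + 1) in F4/80-negative cells (horizontal) and CD301b macrophages (vertical), coloured by its call, with the line of equal FPKM and the 8 tested members in black. Trem2 lies above the line among the genes called higher, and Tyrobp, Syk and Trem1 lie on it.

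The genes whose pair of levels was most like that of Trem2 were Egr1, an immediate early transcription factor (263 FPKM in CD301b macrophages and 140 FPKM in F4/80-negative cells), Lgals3bp, a secreted galectin-binding protein (271 FPKM in CD301b macrophages and 146 FPKM in F4/80-negative cells), and Ctsa, lysosomal cathepsin A (265 FPKM in CD301b macrophages and 148 FPKM in F4/80-negative cells). Likeness was the Euclidean distance over the pair of log2(FPKM + 1) values, between 0.0669 and 0.121 for these, among 11176 genes. All 3 were also called higher, but their direction was fixed by choosing them on these same values. For Treml4 the nearest were Tomm40l, Rngtt and Slc9a7, at distances up to 0.0166, and none of these was past the threshold. With 1 value per population, likeness rests on 2 values only.

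Around the members, most genes of the signalling core were not past the threshold, as were 10760 of all 13039 tested genes. The lists that follow were chosen with earlier results of these data known, and they are given as counts beside the 11.0% of tested genes called higher and 6.20% called lower. Of 12 tested receptors outside the TREM family that pair with DAP12, 0 were higher and 2 were lower (1 and 4 at an unadjusted p under 0.05 in the authors' deposited table), with a median log2 fold of -0.32. The lower ones were Klrd1, which encodes CD94, at 4.18 FPKM in CD301b macrophages and 37.1 FPKM in F4/80-negative cells, and Siglec15, a sialic acid receptor of osteoclasts, listed at 0 in CD301b macrophages and at 1.24 FPKM in F4/80-negative cells. The most abundant, Cd300lb, an activating receptor of the CD300 family, was 86.4 FPKM in CD301b macrophages and 72.4 FPKM in F4/80-negative cells and was not past the threshold. Klrk1, the NKG2D receptor that pairs with DAP10 and DAP12, was 1.51 FPKM in CD301b macrophages and 5.42 FPKM in F4/80-negative cells (adjusted p = 0.0524 by Cuffdiff in the authors' deposited table).

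Of 5 tested chains that carry ITAMs like DAP12, 2 were higher and 0 were lower (2 and 0 at an unadjusted p under 0.05 in the authors' deposited table), with a median log2 fold of 0.07. Fcer1g, the Fc receptor gamma chain and the other main myeloid ITAM adaptor, was 1917 FPKM in CD301b macrophages and 1062 FPKM in F4/80-negative cells (1.81-fold, adjusted p = 0.000999 by Cuffdiff in the authors' deposited table). Fcer1g was thus called higher where Tyrobp was not; the difference between both adaptors was not tested. Cd79b, a chain of the B cell receptor, was 18.0 FPKM in CD301b macrophages and 5.88 FPKM in F4/80-negative cells, while its partner Cd79a was 0.301 FPKM in CD301b macrophages and 0.423 FPKM in F4/80-negative cells.

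Of 7 tested Src family kinases, 0 were higher and 3 were lower (1 and 3 at an unadjusted p under 0.05 in the authors' deposited table), with a median log2 fold of -0.36. Fyn was 9.94 FPKM in CD301b macrophages and 21.9 FPKM in F4/80-negative cells, Src was 3.58 FPKM in CD301b macrophages and 6.68 FPKM in F4/80-negative cells, and Yes1 was 1.42 FPKM in CD301b macrophages and 2.19 FPKM in F4/80-negative cells. Lyn and Fgr, kinases of myeloid cells, were more abundant and were not past the threshold. Lyn was 110 FPKM in CD301b macrophages and 89.7 FPKM in F4/80-negative cells, and Fgr was 49.4 FPKM in CD301b macrophages and 51.8 FPKM in F4/80-negative cells.

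Of 26 tested genes in the list taken as downstream of Syk, 3 were higher and 1 was lower. Another 1 had transcripts that did not allow a direction, and 21 missed the threshold. Whether each gene acts through Syk in these cells was not tested. At an unadjusted p under 0.05 in the authors' deposited table, 8 had a higher and 6 a lower transcript, from 13 genes in all. The median log2 fold was 0.12. Pik3cg, the gamma catalytic subunit of phosphoinositide 3-kinase, was 17.9 FPKM in CD301b macrophages and 8.48 FPKM in F4/80-negative cells. Gab2, a docking protein, was 25.9 FPKM in CD301b macrophages and 17.01 FPKM in F4/80-negative cells. Sh3bp2, an adaptor that binds Syk, was 47.2 FPKM in CD301b macrophages and 41.9 FPKM in F4/80-negative cells, only 1.13-fold. The calls of Gab2 and Sh3bp2 were lost at a threshold of 0.01. Malt1, the protease of the complex through which Syk reaches NF-kB, went the other way, at 11.5 FPKM in CD301b macrophages and 31.6 FPKM in F4/80-negative cells. Its partners Card9 (13.7 FPKM in CD301b macrophages, 20.7 FPKM in F4/80-negative cells) and Bcl10 (42.4 FPKM in CD301b macrophages and 47.2 FPKM in F4/80-negative cells) were not past the threshold. Plcg2, the phospholipase downstream of TREM2, was 39.4 FPKM in CD301b macrophages and 43.8 FPKM in F4/80-negative cells and was not past the threshold either.

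Among 14 inhibitors of ITAM signalling, 1 was higher and 0 were lower (2 and 1 at an unadjusted p under 0.05 in the authors' deposited table), with a median log2 fold of 0.07. Cbl, a ubiquitin ligase that targets active Syk, was 21.4 FPKM in CD301b macrophages and 14.3 FPKM in F4/80-negative cells. Inpp5d, the lipid phosphatase SHIP1 that binds DAP12, was 72.4 FPKM in CD301b macrophages and 47.5 FPKM in F4/80-negative cells, but its transcripts past the threshold did not allow a direction. Of 9 ligands, co-receptors and sheddases, 1 was higher and 0 were lower (3 and 2 at an unadjusted p under 0.05 in the authors' deposited table), with a median log2 fold of 0.17. Another 1, Adam17, at 49.7 FPKM in CD301b macrophages and 44.1 FPKM in F4/80-negative cells, had transcripts past the threshold that did not allow a direction. The higher one was Apoe, a lipoprotein ligand of TREM2, at 7115 FPKM in CD301b macrophages and 2217 FPKM in F4/80-negative cells. Pglyrp1, a ligand of TREM1, was 13.5 FPKM in CD301b macrophages and 15.1 FPKM in F4/80-negative cells, and Adam10, which sheds TREM2 from the surface, was 41.8 FPKM in CD301b macrophages and 29.3 FPKM in F4/80-negative cells, both not past the threshold.

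**Figure D4:**
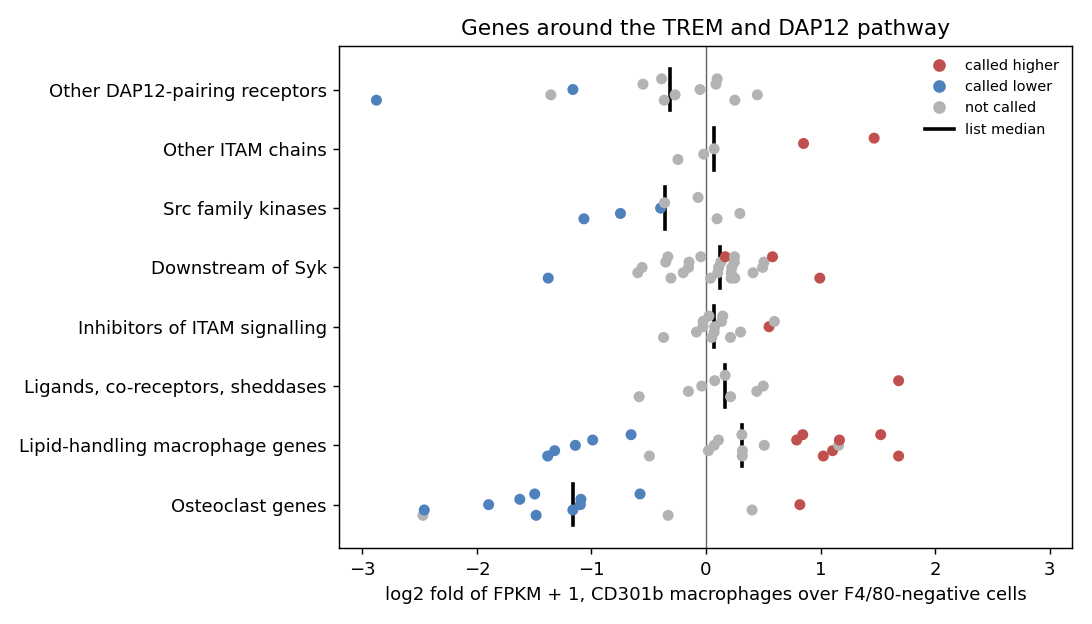
Log2 fold of FPKM + 1, CD301b macrophages over F4/80-negative cells, of each tested gene in 8 lists around the pathway, with called genes coloured and the list median as a black bar. Osteoclast genes lie mostly left of 0 (9 lower, 1 higher), lipid-handling macrophage genes lie on both sides (7 higher, 5 lower), and most genes downstream of Syk lie near 0.

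Genes of lipid-handling macrophages, in which TREM2 is a known marker and regulator, moved in both directions. Among the 21 genes there were 7 higher and 5 lower ones, and 9 missed the threshold. Their median log2 fold was 0.32. Apoe, Ctsb, a lysosomal protease (1765 FPKM in CD301b macrophages and 612 FPKM in F4/80-negative cells), and Gpnmb, a lysosomal glycoprotein (57.6 FPKM in CD301b macrophages and 27.8 FPKM in F4/80-negative cells), were among the higher ones. Itgax, which encodes CD11c (25.4 FPKM in CD301b macrophages and 67.9 FPKM in F4/80-negative cells), Cst7, an inhibitor of lysosomal proteases (2.97 FPKM in CD301b macrophages and 8.92 FPKM in F4/80-negative cells), and Cd9, a tetraspanin (133 FPKM in CD301b macrophages and 295 FPKM in F4/80-negative cells), were lower. Spp1, osteopontin, was 827 FPKM in CD301b macrophages and 767 FPKM in F4/80-negative cells and was not past the threshold. Itgax is also a dendritic cell marker, and 6 of the 8 markers of that list were lower in CD301b macrophages; their part in the lower members here was not tested.

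Most osteoclast genes were lower. Osteoclasts are bone-resorbing cells of the macrophage lineage whose maturation depends on DAP12. Of 13 tested genes, 1 was higher in CD301b macrophages, 9 were lower and 3 missed the threshold. At a threshold of 0.01, 6 of the 9 lower calls were left, without Oscar, Itgb3 and Siglec15. The median log2 fold was -1.16, which is the value of Siglec15, listed at 0 in CD301b macrophages. Ctsk, cathepsin K, was 79.8 FPKM in CD301b macrophages and 443 FPKM in F4/80-negative cells. Acp5, the tartrate-resistant acid phosphatase, was 72.7 FPKM in CD301b macrophages and 226 FPKM in F4/80-negative cells, and Mmp9, gelatinase B, which neutrophils also make, was 42.1 FPKM in CD301b macrophages and 119 FPKM in F4/80-negative cells. Ocstamp, a fusion protein, was 1.70 FPKM in CD301b macrophages and 9.05 FPKM in F4/80-negative cells. The higher member was Tnfrsf11a, which encodes the receptor RANK, at 15.2 FPKM in CD301b macrophages and 8.18 FPKM in F4/80-negative cells. Marker lists of other cell types differed in direction. The osteoclast list had a ratio of sums of 0.359, the dendritic cell list 0.250 (6 of 8 markers lower) and the mast cell list 0.347 (4 of 5 lower). The neutrophil list had 0.557 (3 of 9 lower, 1 higher), with S100a9 and S100a8 leading its sums. Cxcr2 of that list was 27.3 FPKM in CD301b macrophages and 25.7 FPKM in F4/80-negative cells. Ratios of sums were 0.895 for monocyte, 2.10 for T and natural killer cell, 2.62 for platelet and 3.09 for B cell markers. The part of these cell types in the osteoclast genes was not tested.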

How the data were processed

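mRNA libraries (Illumina TruSeq) of CD301b macrophages (2) and F4/80-negative cells (2) were sequenced, per the labels' protocols. Reads went through TopHat2 2.0.2 and Cuffdiff 2.0.2, with mm9 as the build, per the submitters' processing notes. The authors deposited 1 table with, per the file headers, an FPKM per transcript and population, an unadjusted p-value, whether the transcript was tested, and a call. No source used here gives how libraries were combined or whether strand was used in counting. The deposited calls equalled a Benjamini-Hochberg adjustment at 0.05 in all 34535 transcripts, of which only the 16921 tested ones had an adjusted p to compare. Of the accessions, 97.1% were found in RefSeq GRCm38.p6, and 99.2% of these had an overlapping locus, so coordinates are given on GRCm38 and not mm9. No test was run here beyond that adjustment, which was tested on simulated data. Depth is unknown, so no counting interval is given.

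FPKM was summed by symbol, after 56 transcripts with date-like symbols were renamed through their accession. A smallest deposited p-value of 5e-05 sets the smallest adjusted p. Transcript models came from GENCODE M21, promoters from RefSeq, found for Hcst, Syk, Trem1, Trem2, Treml1 and Treml4. The members and lists were chosen with earlier results of these data known. Named genes were all members, up to 4 called genes of each list at 5 FPKM or more (by log2 fold), or, where none was called, its 2 most abundant ones, the 2 most abundant genes of each marker list, the 3 genes nearest to each called member and genes within 50 kb of a member. Others named (such as Cx3cr1, Ly6c2, Oscar, Itgb3, Yes1, Lyn, Fgr, Card9, Bcl10, Plcg2, Cd79a, Cd300lb, Klrk1, Siglec15, Inpp5d, Pglyrp1, Adam10, Tnfrsf11a, Spp1, Gpnmb and Cd9) were chosen after their values were seen. Alternatives were the p threshold, correction within genes, single transcripts, a filter at 1 FPKM, the pseudocount and median scaling. Python 3.11.15, pandas 2.3.3, numpy 2.4.6, scipy 1.17.1 and matplotlib 3.10.9 were used.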

Additional observations from a re-analysis of the deposited data

How the results depend on the processing

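Trem2 was called higher under all 4 alternatives for the calls, and Treml4 under 2 of them. At a threshold of 0.01, and with the smallest p corrected for a gene's transcripts, the number of members called was 1, Trem2. At 0.01 the number of called genes was 1 for the other DAP12-pairing receptors, 1 for the Src family kinases, 2 downstream of Syk and 0 for the inhibitors of ITAM signalling (Cuffdiff p-values; 2 of these inhibitors had an unadjusted p under 0.05). The osteoclast list had 7 called at 0.01 in place of 10 (1 higher and 6 lower), and the lipid-handling macrophage list 11 in place of 12. These lower counts come from the stricter threshold itself. A filter at 1 FPKM changed no count of members or lists. Of 27 log2 folds of members recomputed with a pseudocount of 0.1, median scaling or the most abundant transcript alone, 26 stayed within 1.5 times of the reported fold. The exception was Treml4, at 1.31 with NM_172623 alone. Many of the 27 could not move beyond that limit. A member with 1 transcript keeps its reported fold when that transcript is taken alone, and median scaling shifts any log2 fold only slightly. In 1 case, Syk (0.01 with NM_011518 alone), the sign changed, with no call involved. Scaling each population to its median gene lowers log2 folds by at most about 0.11, which leaves Trem2 at 0.88, Tyrobp at -0.12 and Syk at -0.12. No paired analysis was possible because the table holds 1 value per population, and leaving out libraries was not run for the same reason. Depth is unknown, and low genes such as Treml1 and Treml4 are limited most by this.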
